A study of Rattus norvegicus with 16 samples.

Results

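Neuropeptides are short signalling peptides cut from larger precursor proteins, stored in dense core vesicles and released onto G protein-coupled receptors. Described here, in 4 nuclei of the rat brain, were 10 well known precursor genes that belong to neither the opioid nor the tachykinin family. They were chosen by symbol: Sst (somatostatin), Npy (neuropeptide Y), Cck (cholecystokinin), Nts (neurotensin), Gal (galanin), Cartpt (cocaine- and amphetamine-regulated transcript), Vip (vasoactive intestinal peptide), Adcyap1 (pituitary adenylate cyclase-activating polypeptide), Grp (gastrin-releasing peptide) and Crh (corticotropin-releasing hormone). All 10 were found among the 15037 genes with a named probe, each with 1 probe.

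The arrays covered a pair of hindbrain regions, the solitary nucleus (Sol) and, of the vestibular complex, the medial nucleus (MVe), and the lateral (LHb) and medial (MHb) parts of the habenula, from male Wistar rats aged 8 to 10 weeks. Rats received 2.4% sevoflurane or O2 alone, or intravenous propofol (36 mg/kg/hr after a bolus of 10 mg/kg) or Intralipos, a 10% lipid emulsion infused in the same way; the labels give 60 minutes for every array. All rats, controls included, breathed 40% oxygen at 6 L/min, and the tissue was cut by laser from Nissl-stained frozen sections. Each of the 16 combinations of region and treatment had 1 array. The design sets each anesthetic against its own control, sevoflurane against O2 and propofol against Intralipos, in regions that the study chose for changes in neuronal activity under anesthesia.

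The solitary nucleus is the first relay for signals from the gut, heart and lungs, and its neurons include noradrenergic cells and many kinds of peptidergic cells. The habenula links the forebrain with the monoamine nuclei of the midbrain; its medial part is built mainly of cholinergic and substance P neurons and its lateral part mainly of glutamatergic neurons. The medial vestibular nucleus relays signals on head movement and contains many GABA neurons.

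Promoters are shown for the 3 members that hold a full match to either of 2 motifs, because somatostatin and CART transcription are textbook targets of cyclic AMP signalling through the cyclic AMP response element (CRE), and the neurotensin gene is a known target of AP-1. The sequences are those of RefSeq on GRCr8, from 250 bases before the annotated start to the first 10 bases from it on, read 5′ to 3′ on the strand of the gene, with the CRE (TGACGTCA) or AP-1 (TGANTCA) match in capitals. The Sst window is chr11:90461296-90461555 on the + strand, the Cartpt window chr2:32991226-32991485 on the - strand and the Nts window chr7:39460879-39461138 on the - strand.
Sst: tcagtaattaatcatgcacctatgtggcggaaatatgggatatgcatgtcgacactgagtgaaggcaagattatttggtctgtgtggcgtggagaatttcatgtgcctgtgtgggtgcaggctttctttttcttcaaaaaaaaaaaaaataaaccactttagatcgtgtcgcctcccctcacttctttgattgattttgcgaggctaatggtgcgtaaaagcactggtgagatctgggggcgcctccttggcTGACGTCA
Cartpt: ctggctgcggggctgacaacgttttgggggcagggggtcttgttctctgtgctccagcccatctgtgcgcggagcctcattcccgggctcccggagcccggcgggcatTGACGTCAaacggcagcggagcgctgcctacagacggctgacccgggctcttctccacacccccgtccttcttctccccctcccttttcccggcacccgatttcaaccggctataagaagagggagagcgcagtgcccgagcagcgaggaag
Nts: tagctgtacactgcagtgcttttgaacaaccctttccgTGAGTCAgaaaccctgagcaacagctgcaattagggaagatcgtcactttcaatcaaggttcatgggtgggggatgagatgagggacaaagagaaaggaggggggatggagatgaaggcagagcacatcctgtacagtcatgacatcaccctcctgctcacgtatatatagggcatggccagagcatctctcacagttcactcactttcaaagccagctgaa
Counting the annotated start as 0, the CRE lay at bases 2 to 9 in Sst and at bases -142 to -135 in Cartpt, and the AP-1 match (TGAGTCA) at bases -212 to -206 in Nts. On either strand, the CRE was present in 2 of the 8 member genes with a promoter in the table and in 1.83% of 33469 promoters of 300 bases (250 before the start and 50 from it on), and AP-1 in 1 of the 8 and in 7.33%. The shorter core TGACG, which lies within the CRE, was present in 6 of the 8 and in 21.2% of all promoters. These matches describe the letters of the windows; binding was not measured. The promoters of Cck and Crh were not used here.

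Levels are on a log2 scale, inferred from the range of the deposited values, 2.47 to 19.93, so a difference of 1 is a 2-fold difference. The 8 sevoflurane and O2 arrays had gene means of 7.51 to 7.58 and the 8 propofol and Intralipos arrays 7.29 to 7.36, so the arrays form 2 sets that coincide with the pairs of treatments. Each anesthetic was therefore compared only within its set. As a measure of background, the 95th percentile of 1057 olfactory receptor genes lay between 4.90 and 5.68 on the 16 arrays. The dissection labels were checked against markers: 8 of 8 MHb markers averaged highest in MHb and 5 of 5 measured Sol markers in Sol, although Glp1r was below background there. Of 3 measured LHb markers only Htr2c was highest in LHb, while Gpr151 was higher in MHb and Gap43 in Sol. The labels neither tie regions to rats nor say whether rats were pooled, so regions of 1 rat may stand in the fit as if independent, and p-values may be too small. Region comparisons take the 4 treatments as replicates of a region, and treatment comparisons take the 4 regions as replicates of a treatment.

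In tissue dissected as a whole, fewer cells of a type and less RNA per cell cannot be told apart. With that limit, the solitary nucleus stood out. Highest means in Sol were found for 8 precursors, all but Crh and Vip, and for 6 of the 10 (Sst, Npy, Nts, Gal, Cartpt and Grp) all 4 Sol arrays lay above all 12 arrays of the other regions. Among all genes, 4.97% showed that pattern for Sol. None of the 10 showed it for MVe, against 4.44% of genes.

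**Figure D1:**
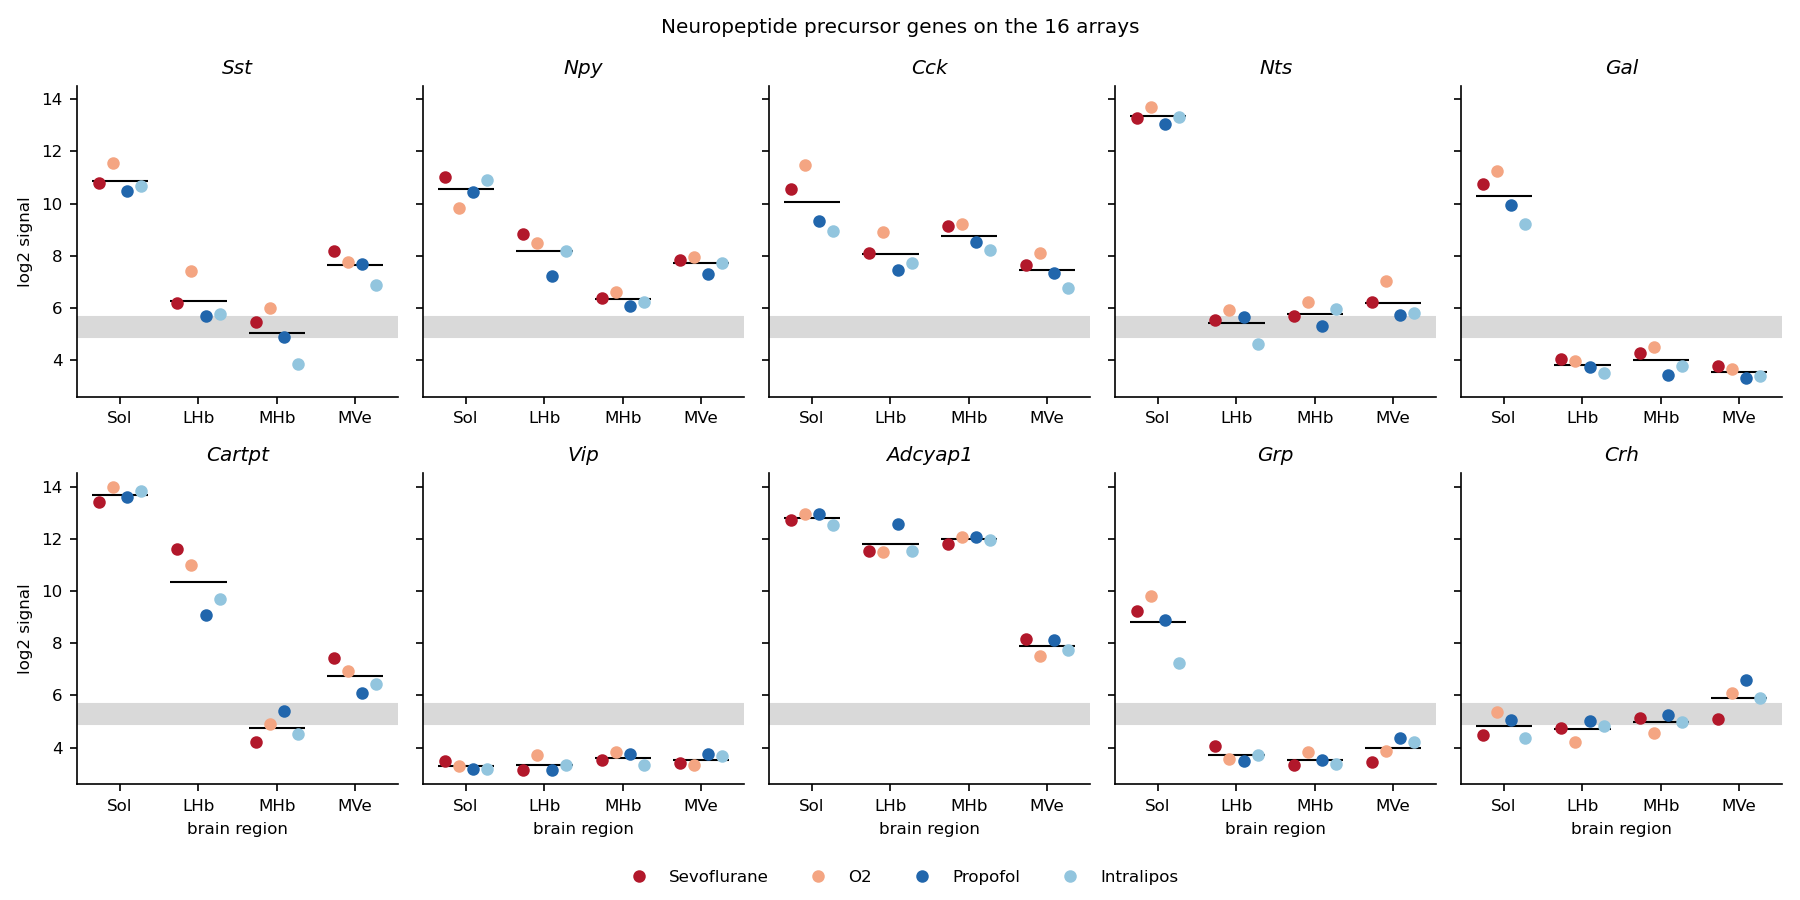
Log2 signal of the 10 precursor genes (one panel each) by region on all 16 arrays; points are single arrays coloured by treatment, black lines are the means of the 4 arrays of a region, and the grey band spans the background level of the arrays, 4.90 to 5.68. Nts, Gal, Cartpt, Grp, Sst and Npy sit higher in all 4 Sol arrays than anywhere else, and Vip lies below the band on every array.

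Neurotensin, which in the brainstem takes part in visceral and cardiovascular control, was high in Sol alone. Nts had 13.28 on the sevoflurane array, 13.70 on O2, 13.07 on propofol and 13.33 on Intralipos in Sol, whereas its highest array in any other region had 7.05. Its mean of 13.34 ± 0.26 in Sol (SD, n = 4) exceeded that of 6.21 ± 0.60 in MVe by 7.13 ± 0.21 (SE; limma adjusted p = 4.11e-14), that of 5.44 ± 0.56 in LHb by 7.90, and that of 5.79 ± 0.39 in MHb by 7.55. The 3 lower regions lay close to background: MHb and MVe, and LHb and MHb, did not pass (adjusted p = 0.129 and 0.258), and the LHb array on Intralipos, at 4.64, was below it. LHb minus MVe was -0.77 for Nts (adjusted p = 0.0106), a call lost in 4 of 25 alternative fits: it had an adjusted p of 0.0620 without the LHb Intralipos array and 0.0524 without the MVe O2 array, 0.0916 without the treatment term and 0.272 on the 8 propofol and Intralipos arrays alone. MHb minus MVe passed for Nts in 2 alternative fits, at -0.69 on the 8 sevoflurane and O2 arrays alone (adjusted p = 0.0264) and at -0.61 without the MHb Intralipos array (adjusted p = 0.0348).

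Cartpt encodes the CART peptides, which reduce feeding and occur in vagal pathways as well as in forebrain reward circuits. It had 13.40 on sevoflurane, 13.97 on O2, 13.59 on propofol and 13.82 on Intralipos in Sol. In LHb it had 11.62, 11.00, 9.09 and 9.69 in the same order of treatments, in MHb 4.22, 4.89, 5.41 and 4.50, and in MVe 7.44, 6.95, 6.09 and 6.45. No 2 regions overlapped, and each neighbour in the order Sol, LHb, MVe, MHb differed past the threshold, by 3.34, 3.62 and 1.98. In MHb only the propofol array was above background.

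Gal encodes galanin, a mostly inhibitory peptide found together with noradrenaline in brainstem neurons, and Grp encodes gastrin-releasing peptide, known in the spinal cord of mice for itch signalling. Both were above background in Sol alone. Gal had 10.74 on sevoflurane, 11.26 on O2, 9.96 on propofol and 9.23 on Intralipos in Sol, against 3.33 to 4.50 on the 12 other arrays. Grp had 9.22, 9.81, 8.90 and 7.25 in Sol in the same order, against 3.32 to 4.36 elsewhere. Since the other regions were not above background, their values are upper limits: with each of those arrays set at its background level, Gal was at least 32.3-fold higher in Sol than in MVe, at least 37.7-fold higher than in LHb and at least 36.9-fold higher than in MHb, and Grp at least 11.4-fold, 13.3-fold and 13.0-fold higher. The fitted differences between Sol and MVe were 6.76 ± 0.22 for Gal (SE; limma adjusted p = 1.07e-13) and 4.82 ± 0.35 for Grp (adjusted p = 3.99e-09). Among the 3 regions without signal no difference passed the threshold for either gene; Gal in MHb minus MVe passed at 0.67 on the 8 sevoflurane and O2 arrays alone (adjusted p = 0.0439) and at 0.45 without the Sol Intralipos array (adjusted p = 0.0427), between values below background.

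Somatostatin and neuropeptide Y mark classes of inhibitory neurons in much of the brain. Sst had 10.78 on sevoflurane, 11.54 on O2, 10.49 on propofol and 10.66 on Intralipos in Sol. It had 6.20, 7.42, 5.71 and 5.79 in LHb, 5.47, 6.02, 4.89 and 3.85 in MHb, and 8.18, 7.78, 7.69 and 6.88 in MVe. Sst followed the order Sol, MVe, LHb, MHb with every step past the threshold (3.23, 1.35 and 1.22). The LHb and MHb arrays overlap, however, when treatments are not matched. In MHb, Sst was above background on 2 of 4 arrays, so the last step rests partly on values below background. Npy had 11.01, 9.85, 10.45 and 10.92 in Sol, 8.83, 8.48, 7.22 and 8.19 in LHb, 6.39, 6.62, 6.06 and 6.25 in MHb, and 7.84, 7.97, 7.31 and 7.74 in MVe. Npy was highest in Sol and lowest in MHb, 1.39 below MVe. LHb minus MVe did not pass for Npy (0.46 ± 0.24, adjusted p = 0.184), but was 0.69 and passed without the LHb propofol array (adjusted p = 0.0451). The GABA neuron markers Gad1, Gad2 and Slc32a1 had array means of 12.1 to 12.6 in Sol, 4.60 to 5.40 in LHb, 4.59 to 5.11 in MHb and 13.1 to 13.7 in MVe; their part in the levels of Sst and Npy was not tested.

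Adcyap1, whose peptide PACAP raises cyclic AMP in its target cells, was far above background in Sol, LHb and MHb. It had 12.73 on sevoflurane, 12.96 on O2, 12.97 on propofol and 12.52 on Intralipos in Sol, 11.52, 11.49, 12.58 and 11.55 in LHb, 11.79, 12.09, 12.09 and 11.94 in MHb, and 8.14, 7.53, 8.14 and 7.76 in MVe. MVe lay apart from the rest, 3.89 ± 0.19 below LHb (SE; limma adjusted p = 2.02e-11). LHb and MHb did not differ past the threshold (LHb minus MHb -0.19, 95% interval -0.59 to 0.20), and Sol exceeded them by 1.01 and 0.82. Those last differences did not pass with only the propofol and Intralipos arrays (adjusted p = 0.110 and 0.0523).

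Cck encodes a peptide abundant in the forebrain and known in the gut as a satiety signal to the vagus nerve. It had 10.57 on sevoflurane, 11.48 on O2, 9.32 on propofol and 8.94 on Intralipos in Sol, 8.11, 8.91, 7.48 and 7.73 in LHb, 9.14, 9.21, 8.54 and 8.23 in MHb, and 7.66, 8.11, 7.35 and 6.77 in MVe. It was above background on all 16 arrays, with a span of 2.61 between the highest and the lowest region mean. In Sol it varied most from array to array (SD 1.17, n = 4), and the Sol and MHb arrays overlapped. Of 6 precursors below 0 for LHb minus MHb, Cck alone passed the test, at -0.72 ± 0.23 (SE; limma adjusted p = 0.0210); the adjusted p was 0.0615 to 0.0807 without any 1 of 5 arrays (sevoflurane or propofol in LHb, or any but O2 in MHb), 0.0938 with only the sevoflurane and O2 arrays and 0.342 with no treatment term. LHb minus MVe did not pass for Cck, but did without any 1 of 3 arrays, at 0.58 without Sol O2 or Sol Intralipos (adjusted p = 0.0307 and 0.0441) and at 0.72 without MVe propofol (adjusted p = 0.0410).

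Crh and Vip were the dim members. Crh, which encodes the main hypothalamic releaser of the stress hormone axis, was above background on 8 of 16 arrays, and 3 of these were from MVe. It had 4.50 on sevoflurane, 5.35 on O2, 5.05 on propofol and 4.37 on Intralipos in Sol, and 5.09, 6.08, 6.60 and 5.90 in MVe. All 3 other regions were lower than MVe, with -1.10 ± 0.25 for Sol minus MVe (SE; limma adjusted p = 0.00168); with only the sevoflurane and O2 arrays the differences from MVe were -0.66 for Sol, -1.09 for LHb and -0.73 for MHb, and none passed (adjusted p = 0.247, 0.0773 and 0.180). Vip, which encodes a peptide of cortical interneurons and of the hypothalamic clock, stayed between 3.15 and 3.85 and was above background on 0 of 16 arrays, so no region order can be read for it, although Sol minus MHb passed at -0.53 with arrays centred on their medians (adjusted p = 0.0124).

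Counted over the fit, 9 of the 10 precursors differed between Sol and MVe, against 35.2% of all genes; 8 of them were higher in Sol, against 19.3% of genes, and Crh was lower, while Vip did not pass. Sol against LHb and Sol against MHb each gave the same 8 higher (14.3% and 19.8% of genes) and none lower (11.0% and 18.9%), and Vip and Crh did not pass. The median difference of the 10 was 4.03 for Sol minus MVe, against -0.02 over all genes. LHb against MVe gave Cartpt and Adcyap1 higher (13.7% of genes) and Sst, Nts and Crh lower (13.0%). MHb against MVe gave Cck and Adcyap1 higher (21.0%) and Sst, Npy, Cartpt and Crh lower (19.9%). These shares of genes are those with a limma adjusted p under 0.05 in the direction named.

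Within the habenula, LHb exceeded MHb for 3 precursors, against 14.1% of genes, and was below it for 1, Cck, against 14.4%. Cartpt had the widest difference, 10.35 ± 1.16 in LHb and 4.76 ± 0.52 in MHb (SD, n = 4 each), 5.59 ± 0.38 apart (SE; limma adjusted p = 1.94e-09). Npy followed with 8.18 in LHb and 6.33 in MHb, 1.85 ± 0.24 apart (adjusted p = 8.09e-06), and Sst with 6.28 and 5.06, 1.22 ± 0.25 apart (adjusted p = 0.000935). Without a treatment term Sst did not pass (adjusted p = 0.0528). In MHb, Sst was above background on 2 of 4 arrays and Cartpt on 1 of 4. Markers of MHb were not absent from the LHb arrays: their mean level was 9.94 to 10.9 on LHb arrays and 14.7 to 15.1 on MHb arrays, and the part of MHb tissue in the LHb values was not tested.

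Taken over both habenular regions and both hindbrain regions, the habenula was higher for Adcyap1 alone, with means of 11.88 in the habenula and 10.34 in the hindbrain, a difference of 1.54 ± 0.13 (SE; limma adjusted p = 2.73e-08), against 18.3% of genes higher. Lower in the habenula were 7 precursors, against 19.8% of genes, with log2 differences of -4.16 for Nts, -3.58 for Sst, -3.01 for Gal, -2.77 for Grp, -2.66 for Cartpt, -1.88 for Npy and -0.52 for Crh. These averages join unlike regions, since MVe lacked Adcyap1's high level and Sol alone carried Gal and Grp. The Crh call was lost in 8 of 25 alternative fits. Cck, at -0.36 (adjusted p = 0.0878), was not called, but passed in 4 of 25: at -0.62 on the 8 sevoflurane and O2 arrays alone (adjusted p = 0.0209), and at -0.44, -0.43 and -0.46 without LHb Intralipos, Sol propofol or Sol Intralipos (adjusted p = 0.0432, 0.0481 and 0.0245).

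**Figure D2:**
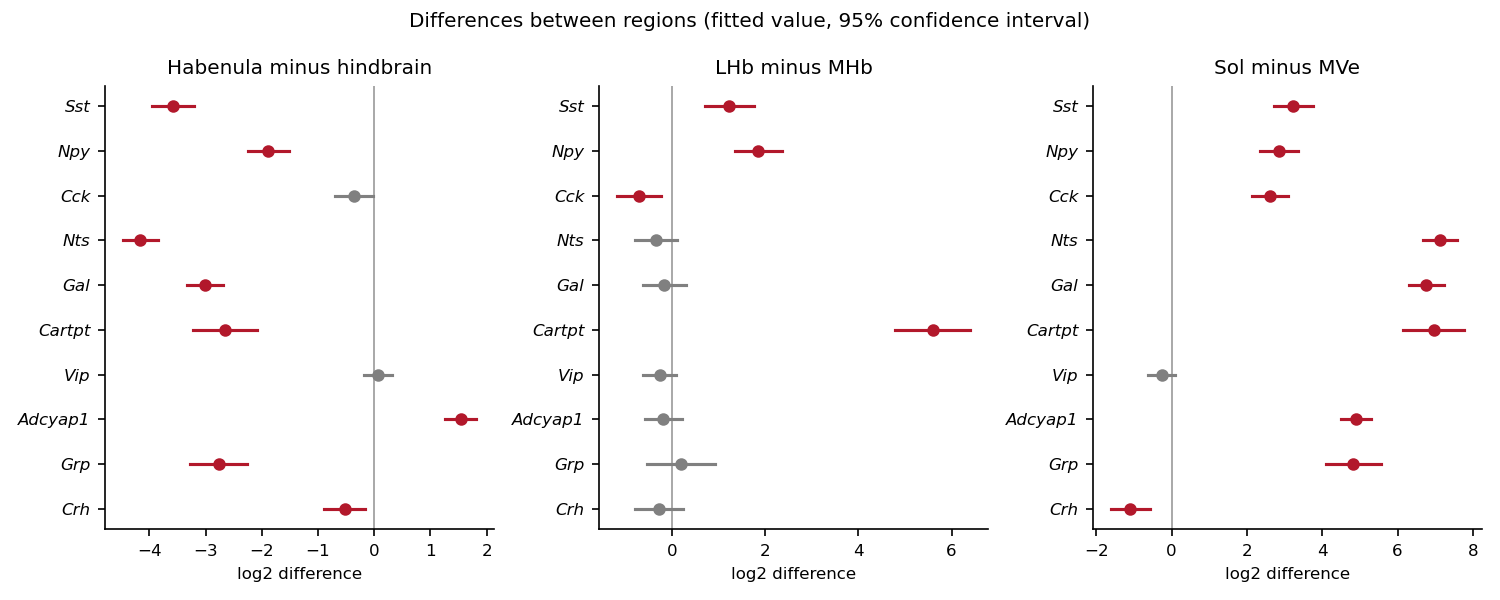
Fitted log2 differences of the 10 precursors for habenula minus hindbrain, LHb minus MHb and Sol minus MVe, with 95% confidence intervals from the limma fit on 16 arrays; red marks an adjusted p under 0.05. Sol minus MVe reaches 7.13 for Nts, and LHb minus MHb reaches 5.59 for Cartpt.

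Neither anesthetic moved any of the 10 genes past the threshold. For sevoflurane minus O2, 0 of 10 precursors were called and 0% of genes; 751 genes and 3 precursors had an unadjusted p under 0.05. Those 3 were Cck (8.87 with sevoflurane and 9.43 with O2, difference -0.56 ± 0.23), Nts (7.69 and 8.22, -0.54 ± 0.21) and Sst (7.66 and 8.19, -0.53 ± 0.25), with limma adjusted p of 0.975, 0.975 and 0.982 (SE; means over 4 regions each). Cck and Nts were lower with sevoflurane in 4 of 4 regions, and Sst in 3 of 4. Over the 10, 8 differences were below 0, and their median was -0.17, against 0.01 over all genes. Below 0 in the same comparison were also 4 of 4 measured hindbrain markers (median -0.31), 3 of 3 LHb markers (-0.34), 4 of 5 Sol markers (-0.19) and 4 of 5 oligodendrocyte markers (-0.30). The mean level of each list over its genes, by array, was 4.39 to 9.70 with sevoflurane and 4.74 to 10.3 with O2 for hindbrain, 10.3 to 15.3 with sevoflurane and 10.6 to 15.1 with O2 for LHb, 3.92 to 8.19 with sevoflurane and 4.04 to 8.56 with O2 for Sol, and 13.2 to 15.9 with sevoflurane and 13.1 to 16.2 with O2 for oligodendrocyte markers. Other lists were mostly above 0: 5 of 8 MHb markers (median 0.18), 6 of 8 neuron markers (0.08) and 4 of 5 microglia markers (0.07). So were 3 of 5 endothelial, 2 of 3 blood, 2 of 2 dentate gyrus and 2 of 2 thalamus markers. GABA neuron markers were below 0 for 2 of 3, and the astrocyte, choroid plexus and cerebellum lists were evenly split. The part of these markers in the values was not tested.

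For propofol minus Intralipos, 0 of 10 precursors were called, against 3 genes or 0.0200%; 1040 genes and 2 precursors had an unadjusted p under 0.05. Adcyap1 averaged 11.44 with propofol and 10.94 with Intralipos, a difference of 0.50 ± 0.19 that was above 0 in 4 of 4 regions (SE; limma adjusted p = 0.646). Npy averaged 7.76 with propofol and 8.28 with Intralipos, a difference of -0.51 ± 0.24 that was below 0 in 4 of 4 regions (adjusted p = 0.721). Over the 10, 8 differences were above 0, with a median of 0.20, against 0.01 over all genes. In the same comparison, 7 of 8 choroid plexus markers were above 0 (median 0.60). This tissue lies next to MVe and Sol in the fourth ventricle. The mean level of its markers was 5.61 to 9.19 on propofol arrays and 5.18 to 8.29 on Intralipos arrays. By region it was 7.83 to 9.19 in MVe, 7.35 to 7.62 in MHb, 5.18 to 7.21 in Sol and 5.16 to 5.65 in LHb. Also above 0 were 4 of 4 hindbrain markers (median 0.12), 6 of 8 MHb markers (0.28) and 6 of 8 neuron markers (0.15). Below 0 were 6 of 6 astrocyte markers (median -0.08), 4 of 4 cerebellum markers (-0.27) and 3 of 3 blood markers (-0.20). The part of these lists in the values was not tested.

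**Figure D3:**
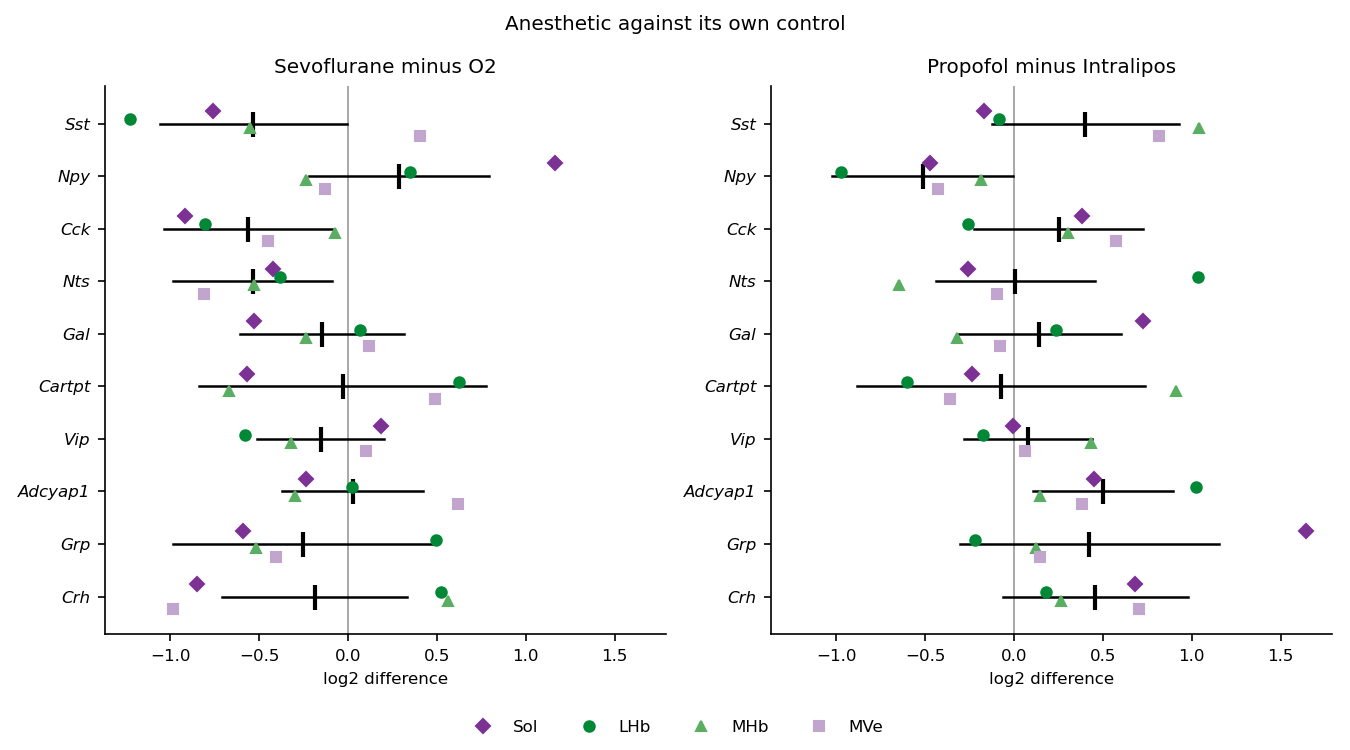
Log2 differences for sevoflurane minus O2 (left) and propofol minus Intralipos (right); symbols are the differences of 1 array against 1 in each region, the black tick and line are the fitted difference over 4 regions with its 95% confidence interval. Cck and Nts lie below 0 in 4 of 4 regions with sevoflurane, Adcyap1 above 0 and Npy below 0 in 4 of 4 with propofol, and no adjusted p passes 0.05.

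The sevoflurane difference minus the propofol difference was called for 0 of 10 precursors and for 2 genes, or 0.0133%; 754 genes had an unadjusted p under 0.05. Sst had -0.93 ± 0.35, Cck -0.81 ± 0.32 and Npy 0.80 ± 0.34 (SE; limma adjusted p = 0.946, 0.946 and 0.947). The median over the 10 was -0.51, against -0.0026 over all genes. For Sst the 95% interval ran from -1.68 to -0.19, and for Cartpt from -1.10 to 1.19.

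Whether an anesthetic acted differently in the habenula and the hindbrain was tested with an interaction term, which left 6 residual degrees of freedom. No precursor was called for sevoflurane (0% of genes called, 803 at an unadjusted p under 0.05) or for propofol (0% called, 816 unadjusted). The smallest unadjusted value belonged to Crh under sevoflurane: its difference was 0.54 in the habenula and -0.92 in the hindbrain, 1.46 ± 0.35 apart (SE; limma adjusted p = 0.735). Crh was above background on only 8 of 16 arrays, so these values rest on dim signal.

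Within single regions each comparison is 1 array against 1 with no replicate check, so the values are given without a test, next to the share of all genes that differed by at least 1. Under sevoflurane in LHb, Sst differed by -1.22, alone of the 10, with 1.03% of genes that far apart. In Sol, Npy differed by 1.16, alone of the 10, with 1.38% of genes. In MHb and MVe none of the 10 reached 1 (1.48% and 3.60% of genes). Under propofol in LHb, Nts and Adcyap1 each differed by 1.03 (1.56% of genes), in MHb Sst by 1.04 (2.17%), in Sol Grp by 1.64 (2.51%), and in MVe none (1.70%). The Nts value involves an array below background, LHb on Intralipos at 4.64. For Sst in MHb both arrays of the pair were below background, propofol at 4.89 and Intralipos at 3.85.

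The value for Grp in Sol coincides with other genes of that dissection. The Intralipos array was the lowest of the 4 Sol arrays for 4 of the 8 precursors above background there (Grp, Gal, Cck and Adcyap1) and for 7 of 9 measured Sol and hindbrain markers. That array also had the lowest median over all genes of the 4, at 6.75, against 6.82 on propofol, 7.17 on O2 and 7.19 on sevoflurane. The share of all genes lowest on it was not counted. Calcr, a receptor gene of the area postrema and solitary nucleus, had 8.77 on sevoflurane, 8.64 on O2, 7.36 on propofol and 6.07 on Intralipos. Hoxb4, a hindbrain patterning gene, had 8.17, 8.55, 7.74 and 6.86 in the same order, and Ttr, a choroid plexus gene, 12.18, 15.10, 13.28 and 7.18. For propofol minus Intralipos in Sol, 4 of 5 Sol markers were above 0 (median 0.51) and 3 of 4 hindbrain markers (median 0.80). For sevoflurane minus O2 in Sol, 4 of 5 Sol markers and 4 of 4 hindbrain markers were below 0 (medians -0.22 and -0.59), as were Cck, Sst, Grp, Gal, Nts, Cartpt and Adcyap1. The part of these shifts in the values of the precursors was not tested.

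**Figure D4:**
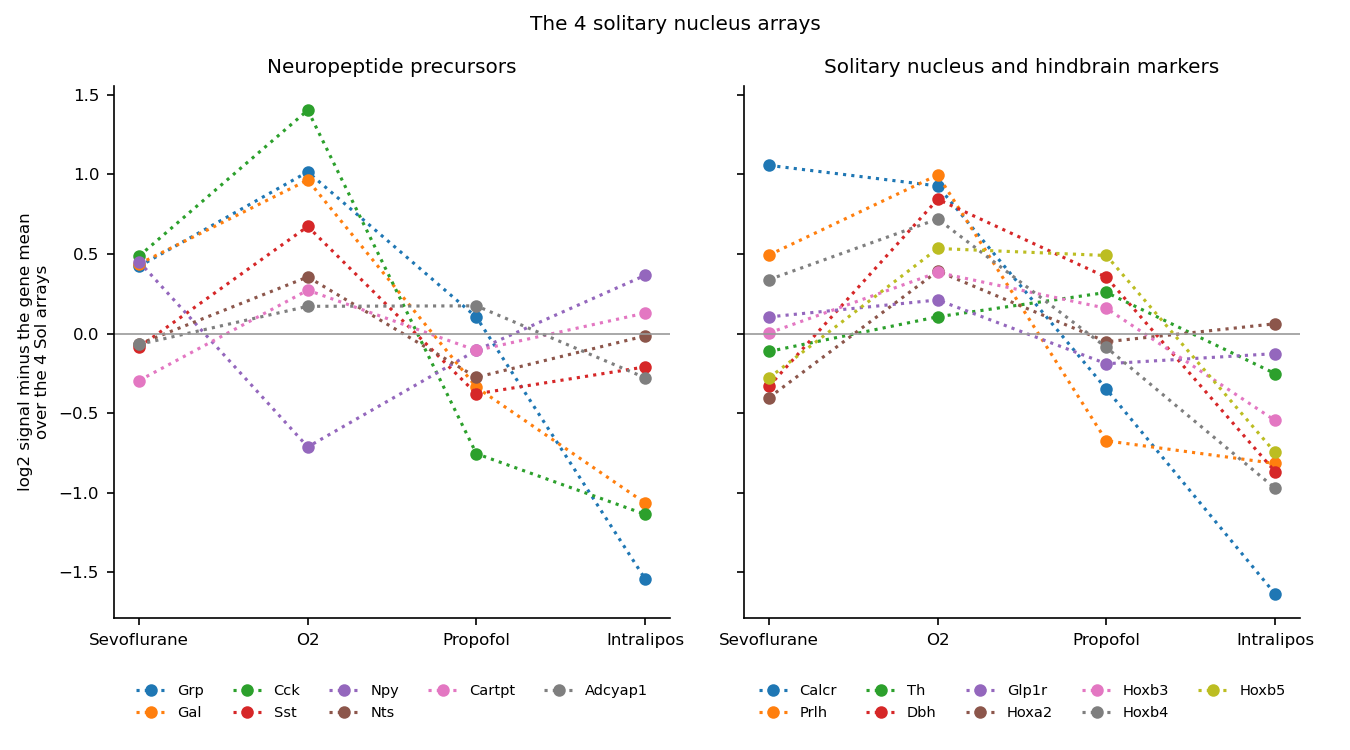
Log2 signal on the 4 Sol arrays minus each gene's mean over them, for the 8 precursors above background in Sol (left) and for 9 markers of the solitary nucleus and hindbrain (right); each point is 1 array and dotted lines only link the points of a gene. The Intralipos array is the lowest for Grp, Gal and Cck and also for Calcr, Hoxb4 and Dbh, while Npy is lowest on the O2 array.

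Differences between the array sets were large for some precursors and cannot be told apart from the route of treatment. In Sol, the sevoflurane and O2 arrays exceeded the propofol and Intralipos arrays by 1.89 for Cck (11.03 and 9.13), by 1.44 for Grp and by 1.40 for Gal, where the median over all genes was 0.21; Calcr differed by 1.99. In LHb, Cartpt averaged 11.31 on the sevoflurane and O2 arrays and 9.39 on the propofol and Intralipos arrays, 1.92 apart, a difference that 0.133% of genes matched or exceeded in size. Adcyap1 in LHb ran the other way, at -0.56.

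The receptors of these peptides were read from a list of 23 genes, 20 of them measured. None passed the threshold for sevoflurane, for propofol or for their difference. Between Sol and MVe 12 receptors were higher in Sol and 4 lower (median 0.84). Of all 15037 genes, 19.3% were higher, 2399 genes were lower, and 35.2% differed in either direction. Between LHb and MHb 9 were higher in LHb and 3 lower (median 0.44), against 14.1% and 14.4% of all genes. The widest receptor differences did not all run with the ligand. Sstr4 and Sstr2, receptors of somatostatin, were highest where Sst was lowest: Sstr4 averaged 5.80 in Sol and 10.96 in MHb, a Sol minus MHb difference of -5.16 ± 0.24 (SE; limma adjusted p = 4.31e-12), and Sstr2 averaged 5.79 in Sol and 10.36 in MHb, a difference of -4.57 ± 0.16 (adjusted p = 6.51e-14). Sstr1 was highest in Sol, at 8.81.

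Galr1, an inhibitory galanin receptor, averaged 10.14 in Sol and 9.09 in LHb, and was 3.48 ± 0.26 higher in LHb than in MHb (SE; limma adjusted p = 5.36e-09), although Gal itself was at background in both. The neuropeptide Y receptors Npy2r and Npy4r were highest in Sol with the ligand and above background on none of the LHb arrays. With those arrays set at their background level, Npy2r was at least 4.27-fold and Npy4r at least 3.69-fold higher in Sol than in LHb. Cckbr, the main brain receptor of cholecystokinin, was highest in MVe, where Cck had its lowest mean; it averaged 7.37 in MVe and was above background on no array of the other regions. Ntsr2, a neurotensin receptor found largely on astrocytes, averaged 15.32 in Sol, 14.45 in MVe, 14.20 in LHb and 10.73 in MHb, with Sol and MHb 4.59 apart. The mean of 6 astrocyte markers was 15.3 to 15.6 on Sol arrays and 14.2 to 14.6 on MVe arrays. It was 14.3 to 14.6 on LHb arrays and 12.4 to 12.8 on MHb arrays. The share of astrocytes in the Ntsr2 values was not tested. Adcyap1r1, the PACAP receptor, averaged 12.19 in Sol and 10.79 in MVe.

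**Figure D5:**
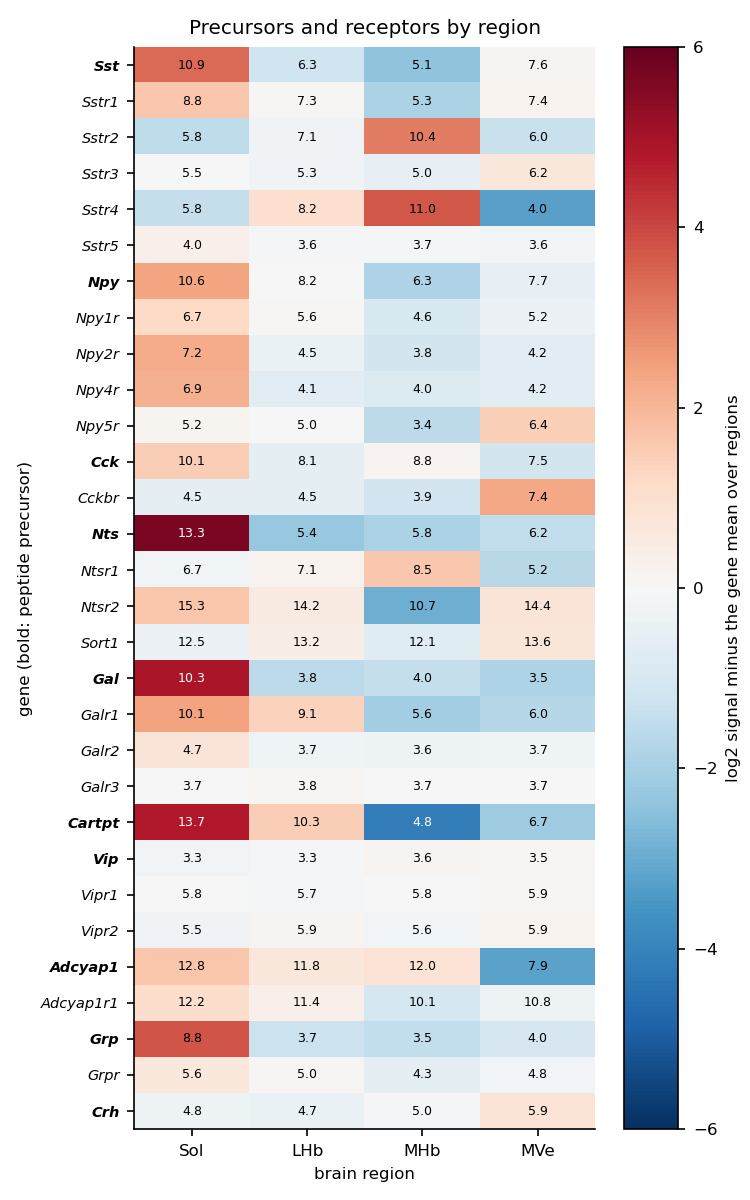
Region means (log2 signal, numbers in the cells, n = 4 arrays each) of the 10 precursors (bold) and the 20 measured receptors, coloured by the difference from the mean of the gene over the 4 regions; colours compare regions within a gene, not genes with each other. Nts, Gal and Cartpt are highest in Sol, whereas Sstr2 and Sstr4 are highest in MHb and Cckbr in MVe.

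Of 20 genes for peptide processing and dense core vesicles, 18 were measured, and none passed for either anesthetic or their difference. Chga, a granin of the vesicle core, averaged 12.64 in LHb and 7.11 in MHb, 5.52 ± 0.20 apart (SE; limma adjusted p = 7.42e-13), and Cadps, a vesicle priming factor, 13.07 in LHb and 8.87 in MHb, so both were lowest in MHb. Chga and Cadps were highest in MVe, at 14.40 and 15.04. Pam, the enzyme that amidates the end of many of these peptides, averaged 16.39 in MHb, 15.73 in LHb, 15.18 in Sol and 12.65 in MVe. Sol minus MVe was 2.52 ± 0.14 for Pam (SE, limma adjusted p = 9.32e-11) and -2.54 ± 0.18 for Cadps (adjusted p = 4.0e-09). Vgf, a granin-like precursor, averaged 9.29 in Sol and 6.70 in LHb. Between Sol and MVe 10 of the 18 were higher in Sol and 3 lower (median 0.78). As above, 19.3% of all 15037 genes were higher, 2399 genes were lower, and 35.2% differed in either direction.

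Genes whose pattern over the 16 arrays was most like that of each precursor were ranked by Pearson's r among 11326 genes above background on at least 1 array, after centring each gene within each array set. The 16 points share regions, arrays and a common normalization, so r is a description with no test. Gal and Grp were above background in Sol alone and Nts was far higher there, so their r mainly reflects that step. It does not show that the genes lie in the same cells. Gal was followed most closely by Th (r = 0.996) and Dbh (0.995), which encode enzymes of catecholamine synthesis. Nts was closest to Tph2 (0.994), the neuronal enzyme of serotonin synthesis, and to Hoxb5 (0.989). Grp was closest to Hoxb4 (0.990), Cartpt to Kalrn (0.986), Adcyap1 to Tmx1 (0.985), Sst to Sorcs1 (0.982), Npy to Aldh6a1 (0.982) and Cck to Mmd (0.946). Crh had no neighbour as near, with Snap25 at 0.868, and Vip, whose region means span only 0.33, was not ranked.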

How the data were processed

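Total RNA from laser-dissected tissue was labelled from 100 ng per array and hybridised to Affymetrix arrays, per the labels' protocols. Per the submitters' processing notes, the authors made the deposited table of log2 values in Affymetrix Expression Console 1.3.0. Neither the summarization setting nor the scale is stated; log2 was inferred from the range of the values. Of 24834 probes, 1646 controls were left out, 15049 had 1 gene symbol, 0 several and 8139 none. The brightest probe stood for each gene, by its mean over the 16 arrays, giving 15037 genes.

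Differences were estimated for every gene at once by limma 3.58.1 under R 4.3.3, from a model holding the 4 treatments and the 4 regions (9 residual degrees of freedom), two-sided, with Benjamini-Hochberg adjustment over all genes and a threshold of 0.05; the fit was tested on simulated data. With 1 array per region and treatment, the number of arrays limits the precision. Genes named were the 10 members, genes among the 3 widest differences of a related list in a comparison, and the nearest of the 3 genes ranked by r for each member; Sstr1, Adcyap1r1, Npff and Nucb2 were added after their values were seen. The members and lists were chosen with earlier results of these data known. Alternatives were other blocks, array subsets, normalizations, filters and each array or region left out. Figures were drawn with matplotlib 3.10.9.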

Additional observations from a re-analysis of the deposited data

Results flagged for a closer look

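Among 40 groups of 4 arrays (10 precursors in 4 regions), 1 array stood apart from the other 3 of its region: Adcyap1 in LHb had 12.58 on the propofol array, against 11.55 on Intralipos, 11.52 on sevoflurane and 11.49 on O2. Chance gives about 1 such array in 20 groups. For sevoflurane minus O2, both habenular regions moved one way and both hindbrain regions the other for Crh and for Vip. The habenula minus hindbrain difference of these effects was 1.46 for Crh (limma adjusted p = 0.735) and -0.60 for Vip (adjusted p = 0.942); neither passed the threshold, and Vip was below background on all 16 arrays.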

How the results depend on the processing

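No precursor was called for sevoflurane, for propofol or for their difference under any of 27 or 28 alternatives, and 0 were called for the interaction under 2. For regions, counts of called precursors stayed within 1.5 times except LHb minus MHb, where 2 were called without a treatment term, against 4 with it; Sst and Cck were the ones lost. The cause was not tested. No value that turned sign was called. With only the sevoflurane and O2 arrays, Sol minus MVe was 0.0036 for Vip, Sol minus MHb 0.066 for Crh, and LHb minus MVe 0.060 for Vip and 0.16 for Grp. With only the propofol and Intralipos arrays, habenula minus hindbrain was -0.059 for Vip, LHb minus MHb 0.025 for Gal and 0.050 for Adcyap1, Sol minus LHb -0.20 for Crh, and MHb minus MVe -0.17 for Vip. With median centring, sevoflurane minus O2 was -0.029 for Adcyap1 and propofol minus Intralipos -0.0070 for Nts. With quantile normalization, Adcyap1 had -0.0040 for sevoflurane minus O2, and Cartpt -0.0095 for the difference of effects. With 1 array or region left out, sevoflurane minus O2 ranged from -0.045 to 0.46 for Npy, -0.29 to 0.089 for Gal, -0.47 to 0.33 for Cartpt, -0.17 to 0.14 for Adcyap1, -0.51 to 0.076 for Grp and -0.44 to 0.078 for Crh. Propofol minus Intralipos ranged from -0.33 to 0.23 for Nts, -0.14 to 0.30 for Gal, -0.51 to 0.34 for Cartpt, -0.039 to 0.17 for Vip and -0.10 to 0.69 for Grp. The difference of effects ranged from -0.44 to 0.037 for Gal and -0.40 to 0.58 for Cartpt. Habenula minus hindbrain ranged from -0.0079 to 0.12 for Vip, Sol minus LHb from -0.16 to 0.072 for Vip and -0.14 to 0.27 for Crh, Sol minus MHb from -0.42 to 0.0067 for Crh, LHb minus MVe from -0.50 to 0.0043 for Grp, and MHb minus MVe from -0.070 to 0.17 for Vip. Vip has no value in the fit of genes above background. Signal near background limits Vip, Crh, Gal and Grp outside Sol, and Sst and Cartpt in MHb. Having 1 array per region and treatment limits every anesthetic comparison. The fit already matches treatments within regions and regions within treatments; a further block by replicate number could not be fitted, because the labels give none.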

Other observations

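Of 40 further precursor genes outside the opioid and tachykinin families, 37 were measured, and most were at or near background in all 4 regions. For 5 of them (Gcg, Nmu, Nppc, Npff and Nucb2) all 4 Sol arrays lay above all arrays of the other regions. Among all genes, 4.97% showed that pattern. Gcg, the glucagon precursor from which solitary nucleus neurons make GLP-1, averaged 8.00 in Sol and was above background on no MVe array. Its fitted Sol minus MVe difference, on the measured values, was 3.90 ± 0.26 (SE, limma adjusted p = 1.39e-09). With the MVe arrays set at their background level it was at least 6.59-fold higher in Sol. Nmu, which encodes neuromedin U, averaged 7.79 in Sol, at least 5.69-fold above MVe by the same measure, and Nppc, which encodes C-type natriuretic peptide, 8.24 in Sol and 5.78 in MVe. Npff, which encodes neuropeptide FF, averaged 8.22 in Sol and 6.01 in MVe, and Nucb2, which encodes the nesfatin precursor, 10.74 in Sol and 9.24 in MVe. Nmb, which encodes neuromedin B, averaged 6.38 in LHb, at least 2.45-fold above MHb, where it was above background on no array. Its fitted LHb minus MHb difference, on the measured values, was 2.81 ± 0.24 (SE, limma adjusted p = 3.81e-08). Apln, which encodes apelin, was 2.41 higher in LHb than in MHb on the log2 scale, with 2 of 4 MHb arrays above background. Calcb, which encodes a calcitonin gene-related peptide, averaged 6.01 in LHb and 7.60 in MHb, a difference of -1.59. None of the 37 passed the threshold for sevoflurane, propofol or their difference.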
